A study of Mus musculus with 112 samples.

Results

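The Hox genes of the 4 mouse clusters were described on bead arrays of epiblast stem cells (EpiSC), dissected epiblasts and 3 other cell types. Every probe whose gene symbol reads Hox, a cluster letter from a to d and a paralogue number from 1 to 13 was taken, whatever its values. This gave 57 probes for 39 genes, of 45281 probes for 30774 gene names on the array. Cluster A, on chromosome 6, was read by 20 probes for 11 genes, cluster B, on chromosome 11, by 15 probes for 10 genes, cluster C, on chromosome 15, by 11 probes for 9 genes, and cluster D, on chromosome 2, by 11 probes for 9 genes. A gene had 1 probe in 26 cases, 2 in 9, 3 in 3 and 4 in 1.

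Hox genes encode homeodomain transcription factors that give cells their position along the body axis. In the gastrulating mouse embryo they come on in the order in which they lie in each cluster, with paralogues of low number first and in more anterior tissue, and those of high number last and in the tail and limbs. In pluripotent cells the clusters are held silent by Polycomb complexes, and retinoic acid, Wnt and Fgf signals and the Cdx proteins open them as the primitive streak forms posterior tissue. Hox proteins bind DNA with TALE homeodomain partners of the Pbx, Meis and Pknox families.

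The study derived EpiSC, the cultured counterpart of the postimplantation epiblast, from embryos of successive stages and compared them with the epiblast itself. The EpiSC arrays numbered 65, from 18 lines of R1-129 strain at passages 10 to 19, with 4 lines from cavity, 3 from prestreak, 6 from late midstreak, 2 from early bud and 3 from late bud embryos. For 4 of these lines a subline, marked with an asterisk, came from the same embryo and had been thawed at another time. Each subline was also at another passage than its line, higher for CAV2* and LB1* and lower for CAV3* and LMS2*. In this way 22 lines and sublines were measured in 3 cultures each, except line PS4 in 2. The labels number these cultures without saying how separate they were. Lines EB1a and EB1b share an embryo number in their names and were counted as separate lines throughout. The established line EpiSC9, of 129SvJ strain at passage 24, had 3 arrays, and RNA of EpiSC9 from another laboratory, called EpiSC9_T, had 1. Embryonic stem cells (ESC) of R1-129 strain at passage 22 had 3 arrays, 3 lines of induced pluripotent stem cells (iPSC), made from tail-tip fibroblasts of (C57BL6xC3H)F1 mice, had 3 each, and embryonic fibroblasts (MEF) of ARC/s strain had 2. Epiblasts were cut from 17 embryos of R1-129 strain, staged by morphology from cavity (embryonic days 5.5 to 6.0) to late bud (7.75 to 8.25), with 2 each at the cavity and prestreak stages, 3 each at late midstreak and late streak, 1 at no bud and 3 each at early bud and late bud. Their RNA was amplified before hybridisation, as was the RNA of 4 EpiSC lines (CAV2, PS5, LMS3 and LB2, 12 arrays). The labels call epiblasts early bud 3 and late bud 3 dissected tissue in one field and cultured cells in another. EpiSC were lifted off a fibroblast layer with collagenase, so RNA of that layer can be present.

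Levels are normalized log2 intensities, and a probe was called detected on an array where its deposited detection p was below 0.01. EpiSC arrays detected 33.7 to 41.1% of all probes, epiblasts 21.3 to 29%, amplified EpiSC 24.6 to 32.7% and MEF 32.7 to 33.7%. No pair of arrays was identical. By their background probes the arrays fell into 7 sets, and all epiblast and amplified arrays lay in set 1, all ESC and iPSC arrays alone in set 7, and the MEF arrays in set 3 beside 15 EpiSC arrays of 5 lines. Each iPSC3 array correlated with each ESC array at 0.996 to 0.997 over all probes, against 0.965 to 0.974 for iPSC1 and iPSC2. The mean level of 12 fibroblast genes fixed as markers (collagens, Lum, Dcn, Postn and others) was 7.19 to 9.59 on EpiSC arrays, 7.79 to 7.99 on EpiSC9, 7.46 to 7.62 on ESC, 7.24 to 8.75 on iPSC, 11.0 to 11.1 on MEF and 5.25 to 6.17 on epiblast arrays. Of these markers Postn was detected on no array of any group.

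Hox detection differed in breadth between the groups. On most of their arrays, EpiSC detected 17 of the 39 genes, EpiSC9 22, iPSC 10, ESC 7 and MEF 19. In EpiSC the genes detected on most arrays were 7 of the 12 genes of paralogue numbers 1 to 4 and 6 of the 11 of numbers 5 to 8. Of the 16 of numbers 9 to 13 they were 4 (Hoxa13, Hoxc9, Hoxc10 and Hoxd10). In MEF they were 3, 7 and 9 genes of the same 3 classes. ESC detected Hoxb2, Hoxa7, Hoxb7, Hoxc6, Hoxd8, Hoxc10 and Hoxa13. No array detected any probe of Hoxa3, Hoxa6, Hoxb8, Hoxb13, Hoxc5, Hoxc11 or Hoxd1, and 13 of the 57 probes were detected nowhere. Hoxa13, which patterns the digits and hindgut, stood apart from its neighbours: its probe ILMN_3087004 was detected on 108 arrays, nearly all of the series, while its other 2 probes were detected on 1 and 2, so the gene's probes disagree. In bulk RNA of this kind, fewer cells of a type and less RNA per cell cannot be told apart.

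**Figure D1:**
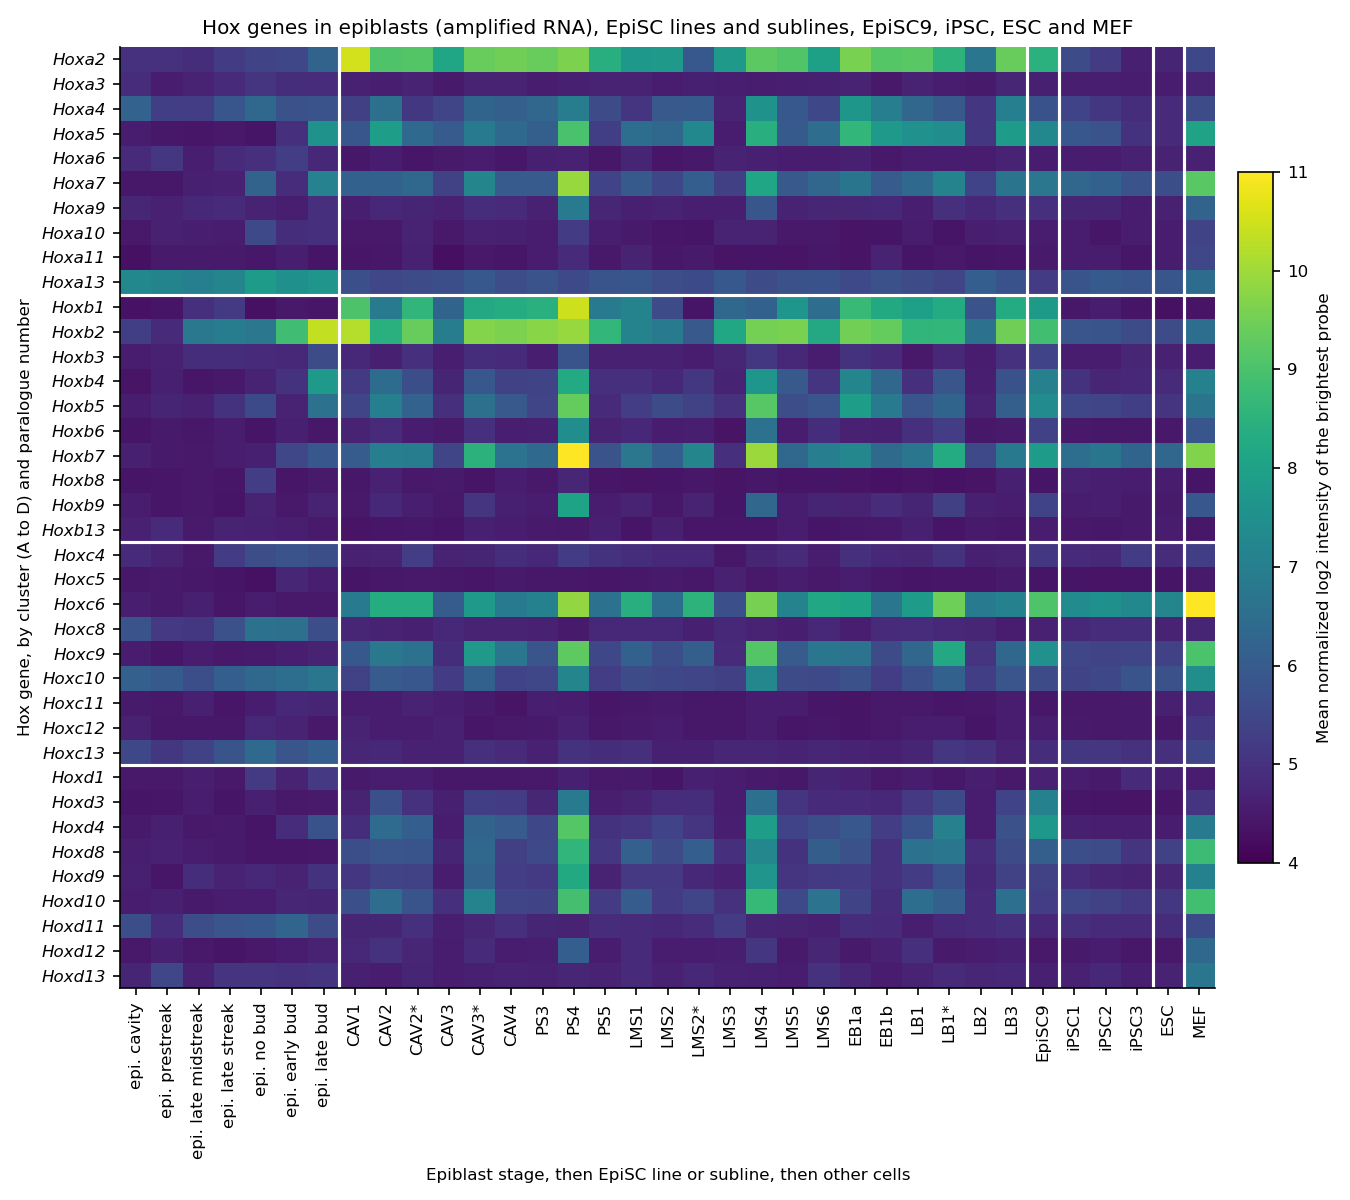
Mean normalized log2 intensity of the brightest probe of the Hox genes, one row per gene shown, ordered by cluster and paralogue number, in epiblast stages, EpiSC lines and sublines, EpiSC9, iPSC, ESC and MEF (columns). Epiblast columns are of amplified RNA and all others of unamplified RNA, so levels cannot be compared between them. White lines separate the clusters and the groups; Hoxa2, Hoxb1 and Hoxb2 are bright in most EpiSC columns, many genes are bright in columns PS4 and LMS4, and Hoxb7, Hoxc6, Hoxc9, Hoxd8 and Hoxd10 are bright in MEF.

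In the epiblast, Hox transcripts apart from Hoxa13 appeared late and in few genes. Hoxa13 was detected there by probe ILMN_3087004 alone, and the gene's other probes were detected in no epiblast. On most arrays of a stage, Hoxa13 was detected in cavity and prestreak epiblasts, Hoxa13 and Hoxb2 in late midstreak and late streak epiblasts, and both again in early bud epiblasts, with Hoxa5 and Hoxb4 beside them in late bud epiblasts. Embryos were compared as 4 early (cavity and prestreak), 6 streak (late midstreak and late streak) and 7 bud epiblasts with limma, which shares its estimate of spread over all genes, and p-values adjusted over all 16723 probes tested. The labels do not say more than that the embryos are separate samples, so p-values here measure the spread between these samples.

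Hoxb2, a hindbrain and neural crest gene, was, apart from the lone Hoxa13 probe, the first to be detected on most arrays of a stage. Hoxa4 was detected in 1 of the 2 cavity epiblasts and in no other epiblast. For Hoxb2 the detections began at late midstreak. Its level was 5.51 and 5.08 in cavity epiblasts, 4.95 and 4.73 in prestreak, 6.56, 6.59 and 7.27 in late midstreak, 6.70, 6.43 and 7.74 in late streak, 6.78 in the no bud embryo, 8.73, 8.36 and 9.51 in early bud and 10.52, 10.48 and 10.03 in late bud epiblasts. All 6 streak values lay above all 4 early values, and the early and late bud values lay above every streak value. Streak minus early epiblasts was 1.81 log2 units (SE 0.56, limma adjusted p 0.0622) and did not pass, and Hoxb2 was detected in 5 of the 6 streak epiblasts and in none of the 4 early ones. Bud minus early epiblasts was 4.13 log2 units (SE 0.54, limma adjusted p 7.98e-06). Where a group is detected on no array, its level is bounded by the dimmest detected signal, which here put bud epiblasts at least 6.55-fold higher. Bud minus streak epiblasts was 2.32 log2 units (SE 0.48, limma adjusted p 0.0011).

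The middle paralogues were seen at the last stage. Hoxb4, which marks the posterior hindbrain, had levels of 8.66, 7.36 and 7.23 in late bud epiblasts, against 4.98, 4.58 and 5.52 in early bud and at most 4.87 in all earlier ones. Hoxa5, a gene of the cervical vertebrae and lung, read 7.04, 8.04 and 7.70 in late bud epiblasts and at most 5.48 in the others. Both genes were thus high in the 3 late bud embryos. Hoxa7, a thoracic gene, read 7.06, 7.01 and 7.23 in late bud, 6.22 in the no bud embryo and 5.13, 4.82 and 4.70 in early bud epiblasts, and was detected in 1 of the 7. Bud minus early epiblasts was 1.57 log2 units for Hoxa7 (limma adjusted p 0.0253) and 1.51 for Hoxa5 (limma adjusted p 0.0499), and bud minus streak epiblasts was 1.69 for Hoxb4 (limma adjusted p 0.0354). These calls sit near the limit: Hoxa5 against early epiblasts lost its call under 25 of 30 alternative settings, and Hoxa7 under 9 of 29.

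In all, 5 of 23 tested Hox probes were higher in bud than in early epiblasts, where 16% of all tested probes were called higher, and none was lower, where 17.6% were. Their median difference was 0.41 log2 units, against 0.03 over all tested probes. Between bud and streak epiblasts 7 of 23 were higher (14.8% of all probes) and none lower (17.7%), the other calls there including Hoxa7 (1.40 log2 units). A probe was tested where any group of the fit detected it, amplified EpiSC included, and among these calls are probes that no bud, streak or early array detected: 1 of the 5 against early epiblasts, of Hoxb7, and 2 of the 7 against streak epiblasts, 1 each of Hoxb7 and Hoxa2. No difference is given for them, since both levels lie below detection. Between streak and early epiblasts limma called 0 of 23 in either direction, with 1 at an unadjusted p under 0.05, where 3.19% of all probes were higher and 2.13% lower. Hoxb1, the hindbrain paralogue that is among the earliest Hox genes of the mouse streak, was detected in none of the 17 epiblasts, with levels of 5.96 in the third late midstreak embryo and 5.43, 4.44 and 5.70 in late streak embryos.

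**Figure D2:**
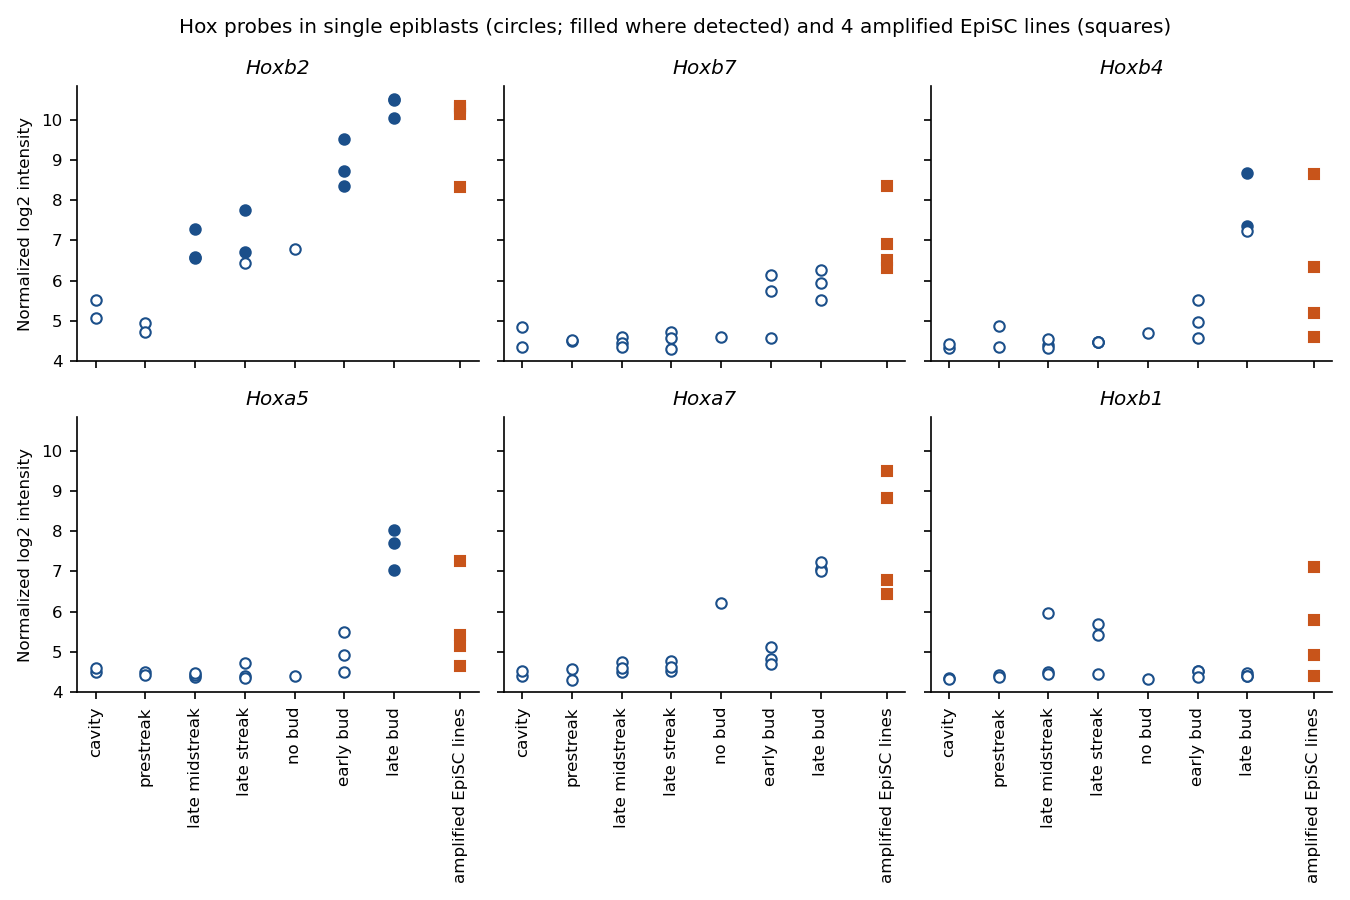
Normalized log2 intensity of 6 Hox genes in each of 17 epiblasts by stage (circles, filled where detected), with the means of the 4 amplified EpiSC lines (orange squares). Hoxb2 is higher from the late midstreak stage on, and Hoxb4 and Hoxa5 at late bud.

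Other genes of the system changed over the same stages. Of 14 regulators known to act on Hox genes in posterior tissue, 10 were tested and 6 were higher in bud than in early epiblasts: Wnt3a (5.74 log2 units), Cdx2 (5.33), Nkx1-2 (5.21), T (3.86), Cyp26a1 and Cdx1. Fgf8, a streak growth factor, was lower (-3.10 log2 units), and the median of the 10 was 2.20. Cdx2, a caudal homeodomain activator of Hox genes, was already at 9.94, 10.41 and 9.65 in late midstreak epiblasts, against 5.18 and 4.81 in cavity and 6.66 and 6.26 in prestreak epiblasts. Its level in streak epiblasts thus lay above that in early ones while Hoxb4 there was undetected. Of the TALE cofactors 3 of 7 tested were higher in bud epiblasts, Meis2 (5.23 log2 units), Pknox2 (3.78) and Meis1 (3.38). Of 15 tested Polycomb and trithorax genes, which silence and activate Hox chromatin, none was higher and 2 were lower, with a median of -0.01. Of 11 fibroblast markers 3 were higher in bud than in early epiblasts, while Lum, Col1a1, Col1a2 and Col3a1 were detected in no epiblast. Of 5 genes of the pluripotent epiblast 3 were lower in bud epiblasts, Pou5f1 (-3.25 log2 units), Sox2 (-2.94, detected on none of the 7 bud arrays) and Fgf5 (-2.39). Lhx5, of the anterior neural list, was higher (4.11), as were Tfap2c (4.0), of the extraembryonic ectoderm list, and Ahnak (2.05), of the extraembryonic mesoderm list. Of the same lists Otx2 (-0.63), Eomes (-0.65), Tbx4 (0.28) and Bmp4 (-0.29) did not pass. Their other members, apart from Cdx2, were detected on too few arrays to be tested. Ahnak was also detected on every EpiSC, ESC, iPSC and MEF array. The part of cell makeup in the Hox differences was not tested.

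EpiSC and epiblast were compared on amplified RNA, with 4 EpiSC lines as units. Hoxc6, Hoxc9, Hoxb7 and Hoxa2 were detected on most amplified EpiSC arrays and in no epiblast. Of the 57 probes 23 were tested, and 13 were called higher in amplified EpiSC than in bud epiblasts (23.7% of all probes) and 3 lower (19.7%). Of these 13, 12 were detected on no bud array and had entered the test through the EpiSC arrays, where they are high, so the count follows in part from the filter. Against early epiblasts 13 were called higher (19.7%), all of them undetected there, and none lower (14.5%). The 2 comparisons share the EpiSC arrays.

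Hoxc6, a thoracic gene, read 8.54, 8.27 and 8.56 in amplified CAV2, 7.23, 6.36 and 7.63 in PS5, 6.61, 6.98 and 7.43 in LMS3 and 5.82, 6.76 and 7.32 in LB2, against 4.37 to 4.71 in the 17 epiblasts, where it was undetected. The groups did not overlap, and the difference from bud epiblasts was 2.81 log2 units (SE 0.24, limma adjusted p 7.71e-09), at least 1.27-fold when bounded by the dimmest detected signal. Hoxc9, a lower thoracic and motor neuron gene, averaged 6.95 in amplified EpiSC and 4.61 in bud epiblasts, a difference of 2.34 (SE 0.37, limma adjusted p 3.97e-05), with a bound of 1.00-fold that allows no statement of size. Hoxa7 was higher by 1.86 log2 units and was detected on all 12 amplified EpiSC arrays and on 1 of 7 bud arrays. The other genes called were undetected in bud epiblasts, so only their detection is given. Hoxa2, the selector of the second branchial arch, was detected on 9 and 10 of 12 amplified EpiSC arrays by its 2 probes, Hoxb7 on 11 and 4, Hoxb3 on 9, Hoxd4 on 6 and Hoxd10 on 4. The bound was 1.05-fold for the brighter Hoxb7 probe, and none could be set for the rest.

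Hoxc10, a lumbar gene, averaged 5.70 in amplified EpiSC and 6.59 in bud epiblasts, a difference of -0.89 log2 units (SE 0.32, limma adjusted p 0.028). This probe was detected on 3 of 12 amplified EpiSC and 2 of 7 bud arrays, and the gene's other probe on none of them. The Hoxc10 difference thus lies mostly between undetected readings. Hoxa13 averaged 6.79 in amplified EpiSC and 7.62 in bud epiblasts (-0.83, SE 0.23, limma adjusted p 0.00633). For both genes all 4 line means lay below the bud mean, and the groups overlapped. Hoxb2 did not pass between these groups, at 9.78 in amplified EpiSC and 9.20 in bud epiblasts, and its difference from early epiblasts was 4.71 log2 units (limma adjusted p 3.29e-06), at least 9.74-fold.

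Of the posterior regulators 5 of 10 were lower in amplified EpiSC than in bud epiblasts and none was higher, led by Cdx2 (-5.78 log2 units), Wnt3a (-4.35) and Nkx1-2 (-3.92). Fibroblast markers moved too: 9 of 11 were higher in amplified EpiSC than in bud epiblasts, with a median of 1.46 log2 units, and all 11 were higher than in early epiblasts. Of the 5 pluripotent epiblast genes Sox2 (3.05), Pou5f1 (1.87) and Fgf5 (1.42 log2 units) were higher than in bud epiblasts, and Dnmt3b was lower (-0.60). MEF detected Hoxc6, Hoxc9 and Hoxb7 on both arrays, and the part of fibroblast RNA and of cell makeup in these differences was not tested. Evx1, the even-skipped gene beside cluster A, was detected in all 17 epiblasts and averaged 5.65 in amplified EpiSC and 8.94 in bud epiblasts, a difference of -3.29.

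Set against ESC and iPSC, the Hox probes that passed in EpiSC were of the first and second paralogues. Lines were the units of this comparison (18 EpiSC lines, with sublines averaged in, 3 iPSC lines, and ESC and MEF as 1 unit each, assumed to vary like the other groups). The genes that carry it are Hoxa2, Hoxb1 and Hoxb2, and the promoters of the first 2, with those of a middle and a posterior gene for comparison, are shown because Hox proteins and their Pbx partners are known to act on the Hoxb1 and Hoxa2 genes themselves. Each is the 250 bases before the start of the gene in RefSeq, build GRCm38.p6, 5′ to 3′ on the gene's strand, with capitals marking a match to 1 of 3 motifs read on both strands.
Hoxb1 chr11:96365508-96365757 (+ strand): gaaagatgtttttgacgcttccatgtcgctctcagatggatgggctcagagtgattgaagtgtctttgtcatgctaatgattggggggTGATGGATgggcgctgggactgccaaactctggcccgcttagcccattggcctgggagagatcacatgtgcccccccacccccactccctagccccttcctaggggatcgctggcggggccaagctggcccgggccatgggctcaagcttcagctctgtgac
Hoxa2 chr6:52164832-52165081 (- strand): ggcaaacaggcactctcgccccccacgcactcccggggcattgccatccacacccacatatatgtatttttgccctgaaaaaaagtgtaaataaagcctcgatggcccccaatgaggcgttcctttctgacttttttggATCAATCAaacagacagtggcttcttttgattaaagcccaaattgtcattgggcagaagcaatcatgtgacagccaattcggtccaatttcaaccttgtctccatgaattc
Hoxa7 chr6:52218574-52218823 (- strand): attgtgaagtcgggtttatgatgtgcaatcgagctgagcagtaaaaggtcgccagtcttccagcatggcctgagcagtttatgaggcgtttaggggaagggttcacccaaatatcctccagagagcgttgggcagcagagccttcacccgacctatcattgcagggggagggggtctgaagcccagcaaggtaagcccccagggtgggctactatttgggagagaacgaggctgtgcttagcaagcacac
Hoxd10 chr2:74691641-74691890 (+ strand): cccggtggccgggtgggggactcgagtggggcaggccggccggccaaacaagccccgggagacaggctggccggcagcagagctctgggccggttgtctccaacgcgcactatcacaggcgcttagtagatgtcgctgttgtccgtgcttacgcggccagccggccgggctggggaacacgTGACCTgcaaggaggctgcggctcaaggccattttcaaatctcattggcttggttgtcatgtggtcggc

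The motifs were the Hox-Pbx motif TGATNNAT, which reads ATNNATCA on the other strand, the Cdx motif TTTATNG, which reads CNATAAA on the other strand, and the retinoic acid receptor motif AGGTCA, which reads TGACCT on the other strand. The capitals in Hoxb1 and Hoxa2 are Hox-Pbx matches and those in Hoxd10 a retinoic acid receptor match, and Hoxa7 holds none of the 3. A Hox-Pbx match was found in 4 of the 22 Hox promoters that RefSeq's table held, those of Hoxa2, Hoxb1, Hoxb8 and Hoxd11. Hoxb8 was detected on no array and Hoxd11 on 5 arrays, so the match is not confined to genes high in EpiSC. Of 32851 promoters of the same length 7.68% held a Hox-Pbx match. A Cdx match was found in 2 of 22 and 9.81%, and a retinoic acid receptor match in 6 of 22 and 14.0%. These are descriptions of letters and not of bound sites.

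Hoxa2 was detected in all 65 EpiSC cultures. On probe ILMN_2874270 the 18 line means ran from 6.74 (LB2) through a median of 9.10 to 10.52 (CAV1). The 9 iPSC arrays read 6.26, 5.40 and 5.24, then 6.11, 4.64 and 4.89, then 4.62, 4.67 and 4.59 for iPSC1, iPSC2 and iPSC3, and the ESC arrays 4.76, 4.63 and 4.75. Every EpiSC line mean lay above every ESC and iPSC array, while the cultures of subline LMS2*, at 5.92, 6.24 and 5.65, overlapped the first iPSC1 and iPSC2 arrays. EpiSC minus ESC was 4.04 log2 units (SE 0.91, limma adjusted p 0.00196), at least 10.5-fold, and EpiSC minus iPSC 3.60 (SE 0.55, limma adjusted p 1.59e-05). The second probe gave 3.94 and 3.65.

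Hoxb1 on probe ILMN_2818750 ran from 5.02 (LMS2) through 7.71 to 10.46 (PS4) over the lines. It was undetected on all 9 iPSC arrays, at 4.34 to 4.67, and on the ESC arrays, at 4.29, 4.30 and 4.37. No line mean reached down into the ESC or iPSC values, but the cultures of subline LMS2* did, at 4.33, 4.40 and 4.49. The difference was 3.25 log2 units from ESC (SE 1.18, limma adjusted p 0.0444), at least 4.62-fold, and 3.11 from iPSC (SE 0.71, limma adjusted p 0.00129), at least 4.76-fold. The other Hoxb1 probe did not pass against ESC (2.87, limma adjusted p 0.0538), and the call on the first was lost under 16 of 40 alternative settings.

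Hoxb2 ran from 6.43 (LMS2) through 9.12 to 10.23 (CAV1) over the lines. The iPSC arrays read 6.59, 5.44 and 5.50, then 5.94, 5.83 and 5.69, then 5.82, 5.81 and 5.24 for the 3 lines, and the ESC arrays 5.81, 5.39 and 5.63. The lowest EpiSC line lay below the highest iPSC array and above the ESC arrays. EpiSC minus ESC was 3.17 log2 units (SE 1.00, limma adjusted p 0.0223) and EpiSC minus iPSC 3.02 (SE 0.61, limma adjusted p 0.000364).

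Against ESC these were 4 of 34 tested Hox probes higher, where 12.1% of all 21965 probes were higher, and none lower, where 14.1% were. The share of Hox probes called higher is therefore that of the array. All 4 fell among the 14 probes of paralogues 1 to 4, and 0 of 8 and 0 of 12 were called in the 2 later classes. Against iPSC 6 of 34 were higher (20.7%) and none lower (20.9%), again all of them among the 14. Of the 4 probes 3 were detected on no ESC array, and of the 6 probes 2 on no iPSC array. Such probes entered the test through other arrays, among them EpiSC, where they are high, so the counts follow in part from the filter. The median difference of the 34 probes was 0.69 log2 units against ESC and 0.53 against iPSC, with 0.01 over all probes in both. EpiSC share no array set with ESC or iPSC, so a difference of sets and one of cells cannot be told apart here. EpiSC and iPSC also differ in strain, which cannot be told apart from the cells either. Of 11 fibroblast markers 2 were higher in EpiSC than in ESC, and none passed against iPSC.

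Several middle paralogues were detected in ESC and iPSC too. Hoxc6 ran from 5.70 (LMS3) through 7.10 to 9.86 (PS4) over the EpiSC lines, against 6.67 to 7.87 in iPSC and 7.43, 7.05 and 7.09 in ESC, and the groups overlapped. Hoxb7 ran from 4.97 through 6.72 to 11.17 over the EpiSC lines, against 6.27, 6.23 and 6.41 in ESC. Within iPSC1 and iPSC2 the first culture had the lowest Hoxb7 of its line, at 5.67 and 5.66, against 6.90 to 7.27 in the other 4 cultures. The fibroblast mean was also lowest there, at 7.65 and 7.96 against 8.60 to 8.75, and its part was not tested.

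Cofactors of the Hox proteins differed as well. Of 9 TALE genes 7 were higher in EpiSC than in ESC, with a median of 1.87 log2 units, among them Meis2 (5.57, from means of 11.46 in EpiSC and 5.89 in ESC), Meis1 (4.27), Pknox2 (3.13) and Pbx3 (1.87). Against iPSC 7 were higher and 1 lower (Pknox1, -0.48). Of 18 tested Polycomb and trithorax genes 3 were higher in EpiSC than in ESC (Bmi1 1.80, Ring1 1.35 and Kdm6b 0.91 log2 units) and 6 lower, among them Cbx7 (-2.09), Phf19 (-1.91), Mtf2 (-1.83) and the PRC2 core subunits Eed (-1.62) and Suz12 (-0.94). Of 12 tested posterior regulators 2 were higher, Fgf8 (3.06) and T (3.04), and 2 lower.

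Against MEF the 2 ends of the clusters went opposite ways. EpiSC were higher for paralogues 1 and 2 and lower for the posterior genes that passed. Of 34 probes 5 were higher (21.5% of all probes) and 12 lower (21.6%), with a median of -1.17 log2 units against 0.10 over all probes. Of the 5 higher probes 4 were detected on no MEF array and entered the test through other arrays, so this count follows in part from the filter. Among paralogues 1 to 4, 5 were higher and 1 lower of 14, among 5 to 8 none was higher and 3 lower of 8, and among 9 to 13 none was higher and 8 lower of 12. By cluster, 4 of 5 C probes and 4 of 8 D probes were lower, cluster B had 2 higher, and cluster A had 3 higher and 4 lower.

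The higher genes included Hoxa2, with MEF arrays at 5.58 and 5.46 (3.24 log2 units on this probe, limma adjusted p 0.00582, and 3.65 on the other), and Hoxb1, with MEF arrays at 4.40 and 4.31 (3.21, limma adjusted p 0.0305, at least 3.91-fold). For both genes every EpiSC line lay above both MEF arrays. Hoxb2, at 6.56 and 6.47 in MEF, was 2.26 log2 units higher in EpiSC without passing.

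Hoxc6 ran from 5.70 to 9.86 over the EpiSC lines, against 11.02 and 11.11 in MEF, with no overlap and a difference of -3.48 log2 units (SE 0.97, limma adjusted p 0.00563). Hoxd8, a gene of the trunk and limbs, averaged 5.83 over EpiSC lines and 8.80 in MEF (-2.97, limma adjusted p 0.00594). Hoxd10, a lumbar motor neuron and limb gene, ran from 4.87 through 5.63 to 8.92 over the lines, against 8.93 and 8.86 in MEF (-2.87, limma adjusted p 0.0264), so the highest line reached the MEF values. Hoxa7 did the same, from 5.32 through 6.10 to 9.91 against 9.20 and 9.21 (-2.80, limma adjusted p 0.0229). Hoxd13, the most posterior D gene, which patterns digits, was at 4.52 to 4.99 over the lines and detected in 1 of 65 cultures. In MEF it read 6.58 and 6.93 (-2.06 log2 units). Hoxd13 entered the test through the MEF arrays, where it is high. Its SE and p-value rest on EpiSC readings mostly below detection and are not given. Hoxd12 (-1.61), Hoxc10 (-2.43 and -1.71) and Hoxa9 (-1.50 and -1.31) were lower too.

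Within set 3, which MEF share with 5 EpiSC lines, all 17 called probes kept their sign, with differences from -3.34 (Hoxd10) to 3.73 log2 units (Hoxa2). EpiSC and MEF differ in strain within this set too, so strain and cells cannot be told apart. Of 11 fibroblast markers 10 were lower in EpiSC than in MEF, with a median of -2.89.

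The iPSC, which are reprogrammed fibroblasts, were below MEF for posterior genes too. All iPSC arrays lay in set 7 and both MEF arrays in set 3, and the strains differ, so the effects of set and strain cannot be told apart from that of the cells here. Of 34 probes 12 were lower in iPSC than in MEF (22.2% of all probes) and none higher (23.8%), with a median of -1.68 against 0.09. Of these 12, 5 were detected on no iPSC array and entered the test through other arrays, so the count follows in part from the filter. Hoxc9 read 5.0 to 5.88 over the 9 iPSC arrays against 9.0 and 9.04 in MEF (-3.55 log2 units, SE 1.17, limma adjusted p 0.0165). Hoxd10 read 4.66 to 5.99 against 8.93 and 8.86 (-3.54, limma adjusted p 0.0146), and Hoxc6 6.67 to 7.87 against 11.02 and 11.11 (-3.68, limma adjusted p 0.00802). For these 3 genes the groups did not overlap. Hoxd13, undetected on the 9 iPSC arrays, was at least 2.71-fold lower, and Hoxc10 on the probe undetected in iPSC at least 5.67-fold lower. The EpiSC and iPSC comparisons with MEF share the 2 MEF arrays. Hoxc9 averaged 6.45 over EpiSC lines and 9.02 in MEF and lay just past the limit (-2.57 log2 units, limma adjusted p 0.0505), with EpiSC lines from 4.83 through 6.25 to 9.26.

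**Figure D3:**
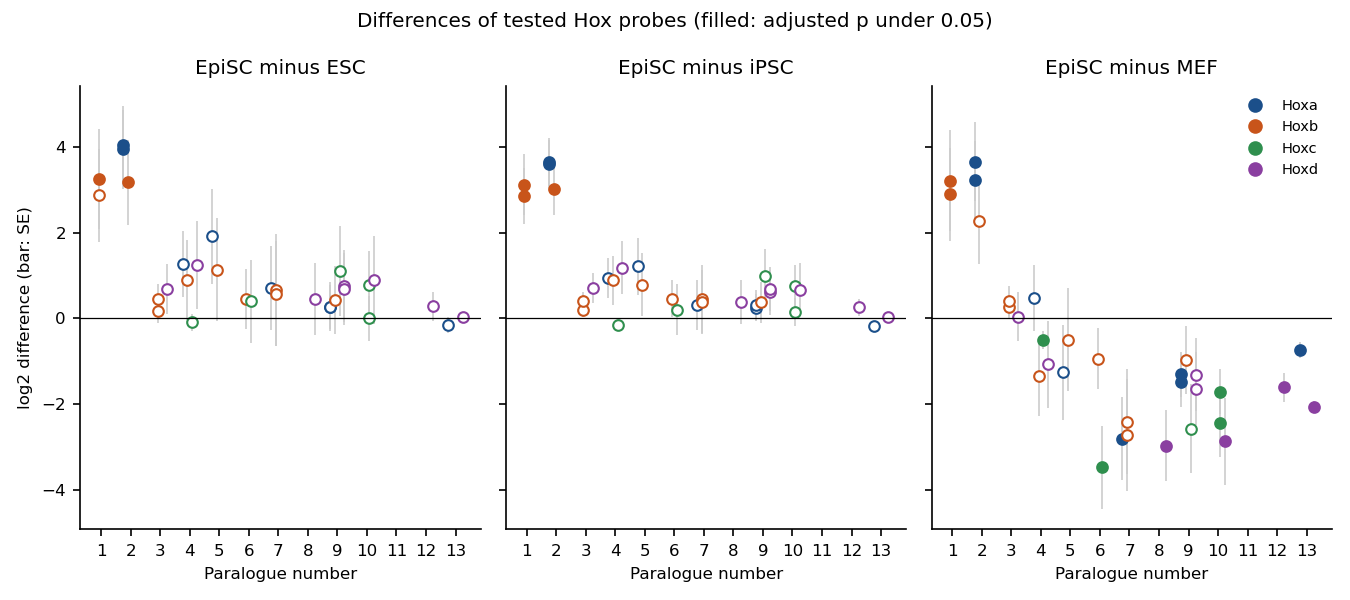
Log2 difference of EpiSC from ESC, iPSC and MEF (3 panels) for tested Hox probes by paralogue number, with standard errors (bars) and filled points where the limma adjusted p is below 0.05. Filled points lie at paralogues 1 and 2 above 0 in all panels, and below 0 at higher numbers only in the MEF panel.

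EpiSC lines differed from each other in 24 of the 25 Hox genes that could be tested, of 39 on the array. An F test over the 22 lines and sublines called 32 of 33 tested probes, where it called 94.4% of all 20797 probes, so this share is that of the array. The exception was Hoxa13 (limma adjusted p 0.382), whose line means had an SD of 0.16 against 0.26 between cultures. For Hoxb7 the SD was 1.44 between lines and 0.39 between cultures of a line, for Hoxb1 1.39 and 0.38, for Hoxb2 1.22 and 0.34, and for Hoxa2 1.05 and 0.26. The F test gave limma adjusted p of 2.88e-28 for Hoxa2 and 2.40e-25 for Hoxb7. These p-values measure the spread among cultures of a line, not the spread between repeated derivations.

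PS4, a prestreak line, and LMS4, a late midstreak line, carried the broadest Hox expression. PS4 was highest of the lines for 24 of 33 probes and second for 6, and LMS4 was highest for 2 and second for 20. Some of these probes, among them those of Hoxa9, Hoxb6 and Hoxb9, were detected on at least 2 arrays only in PS4 and LMS4. They entered the test through these lines, where they are high, so the ranks follow in part from the filter. PS4 had 33 of the 57 probes detected in all of its cultures and LMS4 28, against 7 in LMS3 and 8 in LB2. For PS4 this asks for detection in 2 cultures and for the others in 3. PS4 lay above the MEF mean for 26 probes and LMS4 for 22, against 7 to 13 for the other lines.

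Hoxb7, Hoxc9 and Hoxd10 show how far the middle and posterior paralogues reached. Hoxb7 read 11.98 and 10.37 in PS4 and 9.68, 9.86 and 10.31 in LMS4, against a median of 6.72 over the 18 lines and 5.02, 4.47 and 5.43 in LMS3. Hoxc9 read 9.94 and 8.59 in PS4 and 8.89, 9.26 and 9.23 in LMS4, where the median line was at 6.25. Hoxd10 read 9.75 and 8.10 in PS4 and 8.71, 8.89 and 8.45 in LMS4, where the median line was at 5.63. The MEF arrays read 10.02 and 9.33 for Hoxb7, so both PS4 cultures lay above both of them and no LMS4 culture lay below both. For Hoxc9, at 9.0 and 9.04 in MEF, each line had cultures above and below the MEF arrays. For Hoxd10, at 8.93 and 8.86 in MEF, 1 PS4 culture lay above and the other below, and no LMS4 culture lay above both arrays. Hoxb9, a lower thoracic gene, and Hoxb5, a gene of the shoulder region, were above MEF: Hoxb9 averaged 8.07 in PS4 and 6.30 in LMS4 against 5.90 in MEF, and Hoxb5 9.36 and 9.18 against 6.70. Hoxd13 exceeded the MEF mean in no line, and Hoxa13 averaged 5.56 in PS4 and 5.61 in LMS4, within the range of the other lines.

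The 2 lines parted in Hoxb1 and in Cdx2. Hoxb1 read 10.95 and 9.96 in PS4 and 6.29, 5.86 and 6.34 in LMS4. PS4 was thus highest of all lines, while LMS4 lay below the median line. Of the other anterior genes, Hoxa2 averaged 9.63 in PS4 and 9.24 in LMS4, and Hoxb2 9.91 in PS4 and 9.54 in LMS4, above the median lines at 9.10 and 9.12. Cdx2 read 11.01 and 10.17 in PS4, the highest line, and 5.24, 4.81 and 4.46 in LMS4, with line means from 4.51 to 10.6. Pou5f1, the pluripotency factor Oct4, was at 11.8 in PS4 and at 10.1 in LMS4, the lowest of lines that reached 13.2. The fibroblast mean was 7.83 to 8.19 on the PS4 arrays and 8.48 to 8.77 on the LMS4 arrays, within the range of 7.19 to 9.59 over EpiSC arrays. Both PS4 arrays lay in array set 5, and LMS4 in sets 5 and 1.

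**Figure D4:**
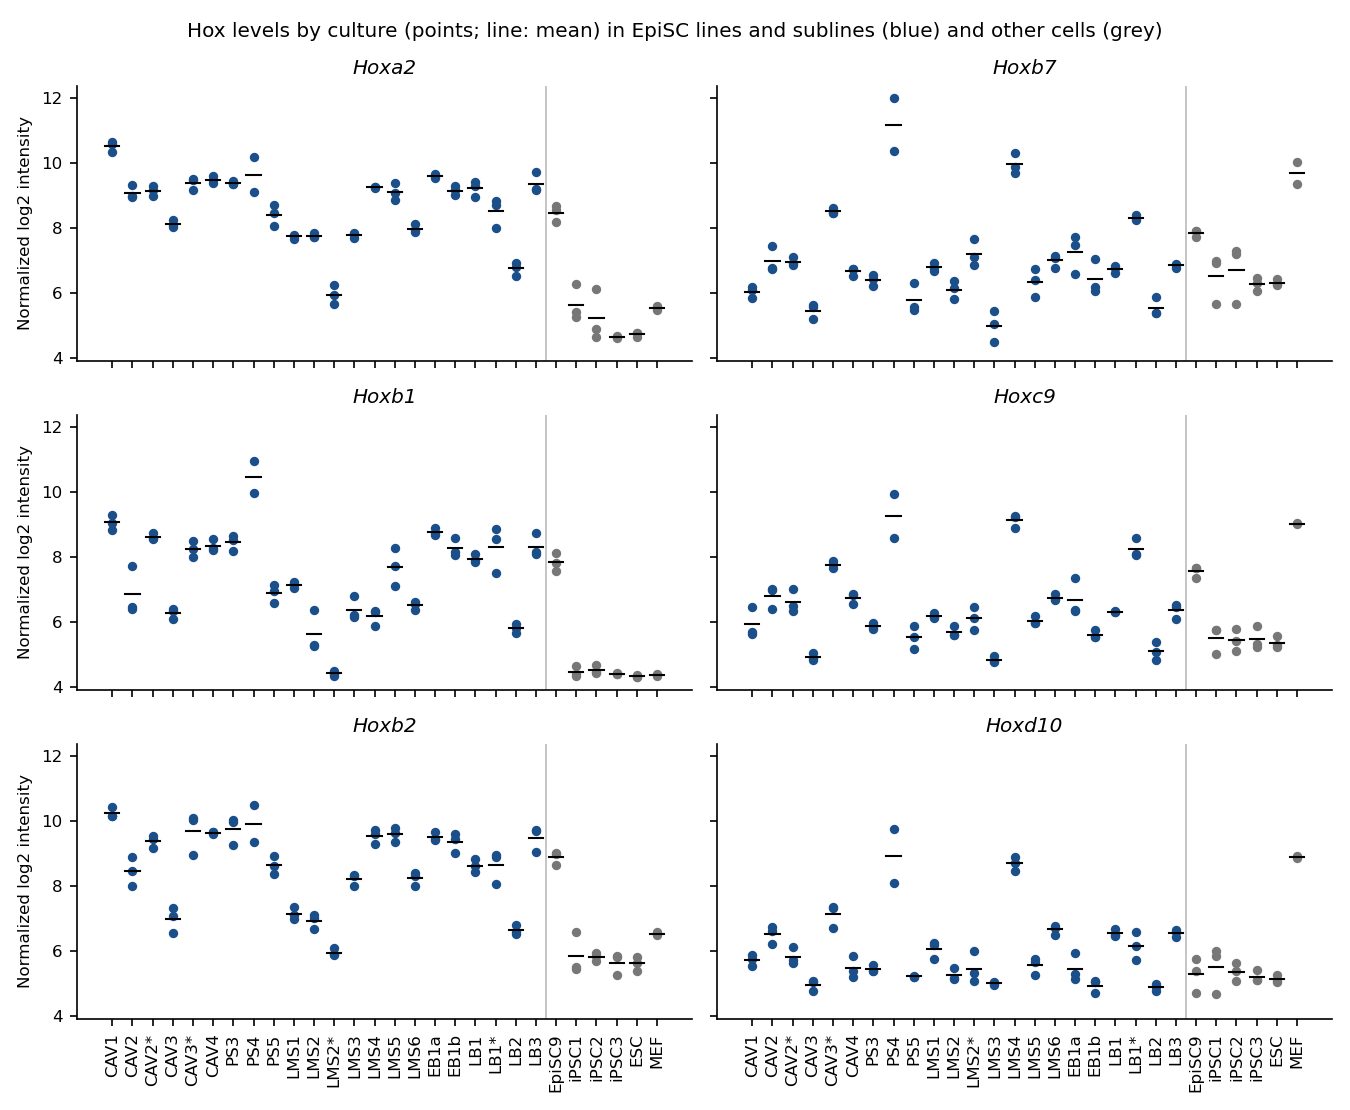
Normalized log2 intensity of Hoxa2, Hoxb1 and Hoxb2 (left) and Hoxb7, Hoxc9 and Hoxd10 (right) in each culture (points) with the mean of each line or group (horizontal marks), EpiSC in blue and other cells in grey. PS4 and LMS4 stand high on the right, and on the left most lines lie above iPSC, ESC and MEF.

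Across the 18 line means many Hox genes varied together. The 17 genes detected on most EpiSC arrays gave 136 pairs, of which 74 were positive and 12 negative past an adjusted permutation p of 0.05, and all 12 negative pairs involved Hoxa13. Hoxa2 and Hoxb2, in different clusters, had Pearson's r of 0.96 and Spearman's rho of 0.94 (permutation p adjusted over the 136 pairs, 5.23e-05 and 0.000194), r of 0.92 without the 2 farthest lines, LMS2 and LB2, and r of 0.94 within array set 1 and 0.94 within set 5 (11 lines each). Hoxb7 and Hoxc9 had r of 0.97 and rho of 0.91, and r of 0.93 without LMS4 and PS4. Hoxc9 and Hoxd10 had r of 0.94 and rho of 0.87, and r of 0.76 without LMS4 and PS4. Of the pairs that did not pass, Hoxa2 and Hoxb7 had r of 0.35 and rho of 0.33 (adjusted permutation p 0.172 and 0.208). All points of such a relation share their arrays. EB1a and EB1b, which may come from the same embryo, count as separate points. Many of the relations lean on few lines: of the 74 positive pairs, r fell below 0.5 in 13 once the 2 farthest lines were left out, and these 2 were PS4 and LMS4 in 9 of the 13. Hoxb4 and Hoxd10 had r of 0.72 with all lines and 0.08 without those 2, and Hoxb5 and Hoxd10 0.78 and 0.20. Within array set 1 the positive pairs had r from 0.01 to 1.00, and within set 5 from 0.51 to 0.99. Hoxa13 did not differ between lines past the F test, and its 12 negative pairs had r from -0.54 to -0.26 within set 1 and from -0.53 to 0.04 within set 5.

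Relations with 6 other measures gave 102 tests. Hoxa13 and Dcn, a fibroblast proteoglycan, passed with r of -0.75 and rho of -0.74 (adjusted permutation p 0.0163 and 0.0191), with r of -0.57 without LB1 and LB2, -0.75 within array set 1 and -0.41 within set 5. The fibroblast mean had rho of 0.80 with Hoxd8 (adjusted permutation p 0.00714) but r of 0.43 (0.185), with r of 0.90 without LMS4 and PS4, and rho of 0.75 with Hoxc6 (0.0184) but r of 0.59 (0.107), with r of 0.84 without those lines. With Hoxa2 its r was 0.02. In lines other than PS4 and LMS4, Hoxd8 and Hoxc6 thus ran with the fibroblast markers, and the part of fibroblast RNA in their levels was not tested.

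**Figure D5:**
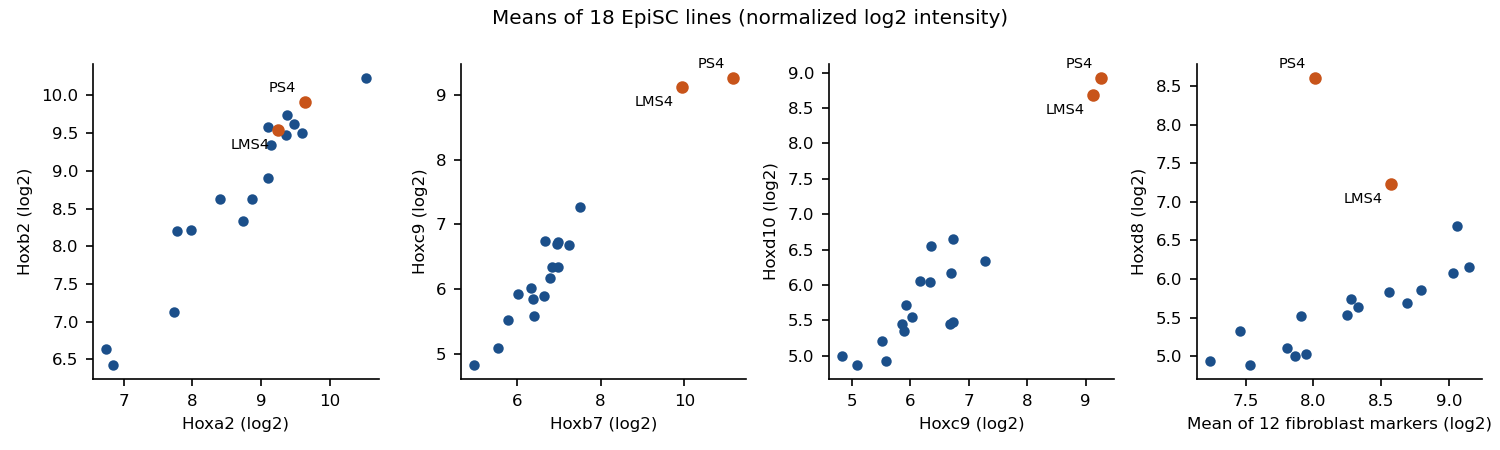
Line means of 18 EpiSC lines for 4 pairs of measures in normalized log2 intensity: Hoxa2 with Hoxb2, Hoxb7 with Hoxc9, Hoxc9 with Hoxd10, and the fibroblast mean with Hoxd8, with PS4 and LMS4 in orange. The first 3 pairs rise together, and in the last PS4 and LMS4 lie above the other lines.

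The stage of the embryo from which a line came showed no Hox difference past the test. Over 18 lines in 5 stages limma called 0 of 33 Hox probes, with 2 at an unadjusted p under 0.05, where 0.0144% of all probes, 3 of 20797, were called. Both of the 2 belonged to Hoxb1 (smallest adjusted p 0.469). Hoxa2 averaged 9.46 in cavity lines, 9.13 in prestreak, 8.11 in late midstreak, 9.37 in early bud and 8.32 in late bud lines. Hoxb7 averaged 6.66, 7.78, 6.95, 6.83 and 6.63 over the same stages. The spread among lines of a stage was wide. The 3 prestreak lines include PS4, and the 6 late midstreak lines include both LMS4 and LMS3. The early bud lines are EB1a and EB1b, which share an embryo number, so that stage may rest on a single embryo.

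Sublines, thawed from the same embryo's cells at another time, differed from their lines in Hox genes. The difference itself varied among the 4 pairs for 26 of 33 probes (limma interaction), where it did for 53.7% of all probes. The p-values of these comparisons measure the spread among cultures of a line or subline, not the spread between thaws. The comparison of CAV3* with CAV3 was the broadest, with 25 of 33 probes higher (21.1% of all probes) and none lower (22.3%), and a median of 1.28 log2 units against -0.01. Hoxb7 read 8.60, 8.44 and 8.46 in CAV3* and 5.61, 5.19 and 5.55 in CAV3, a difference of 3.05 (SE 0.27, limma adjusted p 2.67e-13). Hoxc9 read 7.86, 7.64 and 7.76 in CAV3* and 5.03, 4.82 and 4.89 in CAV3 (2.84, limma adjusted p 1.62e-14, at least 6.05-fold). Hoxb2 read 8.96, 10.02 and 10.10 in CAV3* and 7.30, 6.55 and 7.08 in CAV3 (2.72). The cultures of subline and line did not overlap for any of these, and Hoxd10 (2.18), Hoxb1 (1.97 and 1.87), Hoxa7 (1.80), Hoxc6 (1.71) and Hoxa2 (1.41 and 1.28) were higher as well. Of 11 fibroblast markers 6 were higher in CAV3* and none lower, with means of 8.27 in CAV3* and 7.54 in CAV3, and their part was not tested. Of the 5 pluripotent epiblast genes Fgf5 (-2.64 log2 units), Pou5f1 (-1.69), Nanog (-1.67) and Dnmt3b (-0.81) were lower in CAV3* and Sox2 (0.98) was higher. Otx2 (-1.87) and Eomes (-2.56, undetected in CAV3*) were lower and Lhx5 (1.97, undetected in CAV3) higher, and of 12 posterior regulators 2 were higher and 7 lower. The part of such a shift in cell state in the Hox differences was not tested. All CAV3 arrays lay in set 2 and the CAV3* arrays in sets 4, 5 and 1, so line and subline share no set. With array set as a block, 19 Hox probes passed. Only line CAV1, with its culture 1 in set 1, links set 2 to another set. The correction for set thus rests on that line alone and cannot settle set against subline. Of the 25 probes, 13 were undetected in CAV3, 2 of them in CAV3* as well.

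CAV2* against CAV2 moved both ways, with 6 of 33 probes higher (21.8%) and 10 lower (22.7%). Hoxb1 read 8.57, 8.55 and 8.73 in CAV2* and 7.72, 6.46 and 6.38 in CAV2 on probe ILMN_2818750 (1.76), and its other probe differed by 2.10 (limma adjusted p 1.51e-10). Hoxa5 read 6.26, 6.45 and 6.49 in CAV2* and 7.76, 7.93 and 7.98 in CAV2 (-1.49, limma adjusted p 1.01e-06), with no overlap in either gene. Hoxa2 was higher on 1 probe (0.98) with 0.06 on the other, Hoxb2 (0.94) was higher, and Hoxa4 (-1.45) was lower. Hoxd9 was lower on 1 probe (-1.04) with -0.09 on the other, and Hoxb7 on its dimmer probe (-0.78) with -0.03 on the brighter.

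LMS2* against LMS2 had 5 probes higher (18.2%) and 5 lower (19.9%). Hoxa2 read 5.92, 6.24 and 5.65 in LMS2* and 7.71, 7.73 and 7.84 in LMS2 (-1.82, limma adjusted p 1.88e-11), and Hoxb1 (-1.23 and -0.96) and Hoxb2 (-0.97) were lower with it. Hoxc6 read 8.40, 8.27 and 8.95 in LMS2* and 6.74, 6.51 and 6.36 in LMS2 (2.0, limma adjusted p 1.65e-08), again with no overlap. Fibroblast markers were higher in 9 of 11 cases, with means of 9.26 in LMS2* and 8.34 in LMS2, and their part was not tested. Without the third cultures 3 Hox probes passed.

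LB1* against LB1 had 9 probes higher (15.9%) and 2 lower (17.8%). Hoxc9 read 8.08, 8.06 and 8.57 in LB1* and 6.34, 6.30 and 6.30 in LB1 (1.93, limma adjusted p 4.08e-09), and Hoxc6 (1.59), Hoxb7 (1.56 and 0.91) and Hoxd4 (1.27) were higher, while Hoxd12 (-0.49) was lower, as was Hoxa2 on 1 probe (-0.70) with -0.03 on the other. The fibroblast mean was 8.94 in LB1* and 9.17 in LB1. All arrays of CAV2*, LMS2* and LB1* lay in set 3 and their lines in other sets. Set, passage and thaw therefore cannot be told apart for these 3 pairs.

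EpiSC9 differed from the 18 lines in no Hox probe past the test: limma called 0 of 34 in either direction, with 3 at an unadjusted p under 0.05, where 1.24% of all probes were higher and 0.346% lower. Hoxd3, a cervical gene, was nearest. It read 7.49, 6.99 and 6.74 in EpiSC9, against line means of 4.55 to 6.85, a difference of 1.96 log2 units (SE 0.58, limma adjusted p 0.103). EpiSC9 was 1 unit and was assumed to vary like the other groups.

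Amplification shifted readings across the whole array. In the 4 lines measured both ways, 40% of all probes were higher in amplified than in unamplified RNA and 39.3% lower, and of 27 tested Hox probes 12 were higher and 6 lower, which is no larger a share than on the array. Hoxa7 was higher by 2.30 log2 units (limma adjusted p 1.37e-08), Hoxb3 by 1.90 and Hoxb2 by 1.80, and Hoxa2 was lower (-1.16 and -0.92), as was Hoxb1 (-0.98 and -0.92). Epiblast levels were therefore tested only against amplified EpiSC.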

How the data were processed

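Total RNA was hybridised to single-colour Illumina mouse bead arrays. Per the file headers, the deposited table holds a background-uncorrected, non-normalized intensity and a detection p-value for each probe and array, and both were used as deposited. The deposited processed table holds log2 values, per the file headers and their range, and served as an alternative only. The submitters' processing notes name BeadStudio. How the authors made the processed table, and the array version, are not given in the sources used here. Of the 57 Hox probes 55 are in that table, and 3 of its columns match another array best.

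Intensities of all arrays were background-corrected and quantile-normalized together with neqc of limma 3.58.1 (R 4.3.3, data.table, version 1.17.8), with an offset of 16 before the log2. A probe was tested where it was detected (p below 0.01) on at least 2 arrays of 1 group of the fit. Models were fitted to all tested probes with lmFit and eBayes with a trend, with Benjamini-Hochberg adjustment over all of them and a limit of 0.05. Units were lines (or embryos) where several cultures came from 1 line, and cultures for differences between lines and sublines. The amplification fit had the line as a covariate. The model scripts were tested on simulated data with known changes. Array sets were cut from a clustering of 13482 background probes.

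The members and the gene lists were chosen with earlier results of these data known. In each comparison the text names up to 10 members past the test by size, and up to 4 genes of each list. Culture numbers did not pair cultures: deviations of same-numbered cultures correlated at 0.03 on average (-0.38 to 0.68), against -0.01 for different numbers. Amplified and unamplified arrays of a culture are paired by the labels. Gene positions and promoters are from RefSeq GRCm38.p6, matched by symbol for all 39 genes. Alternatives covered the normalization, background correction, filter, probes per gene, units, array sets and each array, embryo or line left out. The lone EpiSC9_T array was not tested. The counts cover all tested members, and the values of 1 Hox gene and 1 cofactor are not reported here.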

Additional observations from a re-analysis of the deposited data

Results flagged for a closer look

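Within groups of 4 to 10 units, 85 sets of values of named Hox genes were examined for a unit far from the others, and 12 with a range of at least 1 log2 unit were marked, where chance marks about 1 in 20 sets that are independent. These sets share lines and hold genes that vary together, so the marks are not independent. LMS4 accounted for 9 of them among the 6 late midstreak lines. Its mean was 8.15 for Hoxa7 (group median 5.98), 5.89 for Hoxa9 (4.67), 9.18 for Hoxb5 (5.57), 6.61 for Hoxb6 (4.67), 6.30 for Hoxb9 (4.64), 7.25 for Hoxc10 (5.57), 6.57 for Hoxd3 (4.87), 7.91 for Hoxd4 (5.33) and 7.65 for Hoxd9 (5.11). Among the 4 cavity lines CAV2 stood high for Hoxc6 at 8.34 (group median 6.91). Among the 4 amplified EpiSC lines PS5 stood low for Hoxb2 at 8.33 (10.2) and CAV2 high for Hoxb9 at 5.94 (4.57). PS4 lies in a group of 3 lines, which is too small for this comparison.

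The difference between subline and line itself differed among the 4 pairs for 26 of 33 Hox probes (limma interaction, adjusted over all probes), where 53.7% of all probes did. Hoxa2 on probe ILMN_2874270 differed by 0.06 in CAV2*, 1.28 in CAV3*, -1.82 in LMS2* and -0.70 log2 units in LB1*, each against its line. Its other probe differed by 0.98, 1.41, -1.21 and -0.03 in the same order.

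The array of EpiSC9_T, left out of every comparison, detected 9 Hox probes of 6 genes, among them Hoxa2, Hoxb1, Hoxb2, Hoxc6 and Hoxd11. It read 7.08 for Hoxa2, 6.76 for Hoxb1, 8.22 for Hoxb2 and 6.26 for Hoxc6. Its fibroblast mean was 6.21, against 7.79 to 7.99 on the EpiSC9 arrays.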

How the results depend on the processing

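Of 424 counts of Hox calls under other settings, 390 lay within 1.5 times the reported count. Bud over early epiblasts gave 2 calls in place of 5 with the authors' processed values, no background correction, median scaling, amplified arrays normalized separately, or only the 2 groups fitted, and 2 to 7 with 1 embryo left out (2 without cavity 1, prestreak 1, late bud 2 or late bud 3). Bud over streak epiblasts gave 4 in place of 7 without background correction, 3 with median scaling, 4 with separate normalization and 4 without the 2 epiblasts also described as cultured cells, and 3 to 9 with 1 embryo left out (3 without late bud 2 or late bud 3). Streak over early epiblasts gave 1 with only the 2 groups fitted and 0 to 1 with embryos left out. Amplified EpiSC against bud epiblasts gave 8 in place of 16 with only the 2 groups fitted, and 9 to 16 with 1 line or embryo left out (9 without CAV2), and against early epiblasts 11 to 16. EpiSC against ESC gave 2 with the authors' values, 2 without background correction and 7 with cultures as units (3 to 5 with 1 unit left out). EpiSC against iPSC gave 10 with cultures as units (5 to 7). With 1 unit left out EpiSC against MEF gave 14 to 22 and iPSC against MEF 11 to 12, with 21 for iPSC when only iPSC and MEF were fitted. EpiSC9 against EpiSC gave 5 without PS4 and LMS4, a setting chosen after seeing that their Hox levels were highest, which itself favours such calls, and that gave 5 for EpiSC against ESC, 9 against iPSC and 25 against MEF, and 0 to 1 with 1 unit left out. Lines differed for 29 to 32 probes, CAV2* for 11 to 13 (10 with 1 probe per gene), CAV3* for 21 to 25, LMS2* for 3 to 11, LB1* for 6 to 11 (7 with median scaling), stage of origin for 0, and amplification for 13 to 17.

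The culture number as a replicate block gave 32 probes between lines, 16 for CAV2*, 25 for CAV3*, 10 for LMS2* and 11 for LB1*, and the paired culture block gave 14 for amplification in place of 18, so this pairing moved no count by over 1.5 times. Array sets as a random block gave 5 for EpiSC against ESC, 6 against iPSC and 16 against MEF, and could not be fitted as a fixed block for CAV2*, LMS2* and LB1*. Of 2607 values of named probes, 2396 kept their call and direction, 210 lost the call, and 1 reversed: Hoxa13 on amplification became -0.0158 log2 units when amplified arrays were normalized separately, in place of 0.97. The causes were not tested. Group sizes of 1 to 4 units limit the contrasts with ESC, iPSC, MEF and early epiblasts.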

Other observations

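Other transcripts of the cluster regions were read beside the Hox genes. Hoxa11os, the antisense transcript of Hoxa11, averaged 4.73 in EpiSC lines and 7.56 in MEF, a difference of -2.83 log2 units. Evx1, the neighbour of Hoxa13, averaged 8.21 in cavity, 7.99 in prestreak, 9.66 in late midstreak, 9.87 in late streak, 9.29 in early bud and 8.86 in late bud epiblasts, and was detected in all of them, among them cavity and prestreak epiblasts, in which no Hox gene except Hoxa13 was detected on most arrays. Streak minus early epiblasts was 1.66 log2 units. In unamplified EpiSC Evx1 averaged 5.46, a level that cannot be set against those of the amplified epiblast RNA.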
